A study of Homo sapiens with 6 samples.

Results

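The 9 genes described here belong to interleukin-6 family and STAT3 signalling. They encode cytokines (IL6, LIF, IL11 and CLCF1), receptor chains of the family (IL6ST, LIFR and OSMR), the transcription factor STAT3 and the feedback inhibitor SOCS3. They were taken by matching these symbols to the gene identifiers of the deposited tables, where all 9 were found among 57905 identifiers, and all 9 had enough counts to be tested. Total RNA of U87, an established human glioma cell line, was sequenced in 6 libraries. In 3 of these, labelled siRBM47 for genotype and treatment, the cells had received 100 pmol of a small interfering RNA with lipofectamine 3000. Its target, RBM47, binds RNA and takes part in alternative splicing and mRNA stability. The other 3 were controls with genotype WT and treatment "no", with no word on mock transfection; effects of siRNA and of transfection cannot be told apart.

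Most cytokines of the interleukin-6 family act through IL6ST, also called gp130, a receptor chain that nearly all cells carry. IL-6 and IL-11 first bind a receptor of their own and then pair gp130 with itself, whereas LIF pairs gp130 with LIFR, oncostatin M pairs it with OSMR or LIFR, and CLCF1 uses LIFR and gp130 with the CNTF receptor. The paired chains activate Janus kinases, which phosphorylate STAT3; STAT3 then enters the nucleus and switches on target genes that include SOCS3. SOCS3 binds gp130 and the kinases and shuts the signal off, so its transcript is commonly read as a marker of recent pathway activity. In glioma, IL-6, LIF and STAT3 are known for their links to tumour cell survival, stem-like states and mesenchymal gene programmes. The transcript counts below do not measure STAT3 phosphorylation or secreted cytokine.

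No fall of RBM47 was detected. Its level was 3.54, 2.74 and 2.23 CPM (counts relative to the scaled library size) in siRBM47 replicates 1 to 3, against 1.62, 1.73 and 5.75 CPM in control replicates 1 to 3. Log2 fold changes are siRBM47 over control throughout, and RBM47 was at -0.11 (SE 0.50, adjusted p = 0.942, edgeR quasi-likelihood test), and at 0.76 (SE 0.36, adjusted p = 0.152, edgeR) without control replicate 3. The groups are therefore named by their labels and not by a measured depletion. Control replicate 3 stood apart: 19.3% of tested genes differed there by more than 1 on the log2 scale from the mean of control replicates 1 and 2, against 4.07% for siRBM47 replicate 1 against the mean of siRBM47 replicates 2 and 3. Values that move strongly with control replicate 3 are given with and without it. Separate cultures are not stated for the replicates, and p-values refer only to the spread among these libraries, which may be technical. Total counts ranged from 15580000 to 18130000, rounded. The glioma label was set against its markers, and VIM and CD44 were abundant. Of the astrocyte markers AQP4 was at 0 in every library and GFAP was at 0.338 to 1.49 CPM over the 6 libraries. By contrast, SLC1A3 was at 26.2 to 56.2 CPM, and NES was at 13.1 to 15.2 CPM. Of the 9 astrocyte and glioma markers, 3 stayed under 1 CPM in all 6 libraries. Of 11 immune markers, 5 were at 0 in all 6 libraries and 10 stayed under 1 CPM, CSF1R being the exception. The summed immune list was 23.8 to 31.7 CPM in siRBM47 and 12.3 to 25.8 CPM in control. The 5 endothelial markers found summed to 8.77 to 11.05 CPM in siRBM47 and 12.7 to 16.4 CPM in control, most of it KDR (5.03 to 6.51 CPM in siRBM47 and 7.98 to 14.8 CPM in control); 2 of the 3 tested endothelial markers had a positive log2 fold change, and the list median was 0.37. The 5 neuronal markers summed to 23.2 to 35.4 CPM in siRBM47 and 17.2 to 22.2 CPM in control, most of it SNAP25. The part of such markers in the results below was not tested. In bulk RNA, fewer cells of a type and less RNA per cell cannot be told apart.

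The promoters of 3 members are printed because short motifs for transcription factors of this pathway, or of inflammatory signalling that induces its ligands, were found in them. Windows of up to 250 bases before the start were read from the RefSeq promoter table (GRCh38.p14), which matched 7 of the 9 members in 10 windows. LIF and CLCF1 were not among the matches. Capitals mark the motif, and sequences run 5′ to 3′ on the strand of the gene: IL6 (chr7:22726950-22727146, plus strand), IL11 (chr19:55370464-55370713, minus strand) and LIFR (chr5:38595406-38595655, minus strand).
IL6: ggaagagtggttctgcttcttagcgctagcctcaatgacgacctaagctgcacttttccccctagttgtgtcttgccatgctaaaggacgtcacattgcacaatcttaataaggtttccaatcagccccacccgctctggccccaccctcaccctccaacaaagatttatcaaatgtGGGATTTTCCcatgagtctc
IL11: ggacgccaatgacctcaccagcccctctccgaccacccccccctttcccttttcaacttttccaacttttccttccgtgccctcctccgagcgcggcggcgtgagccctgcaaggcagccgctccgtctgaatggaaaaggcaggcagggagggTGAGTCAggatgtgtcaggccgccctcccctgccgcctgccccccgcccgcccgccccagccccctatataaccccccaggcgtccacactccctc
LIFR: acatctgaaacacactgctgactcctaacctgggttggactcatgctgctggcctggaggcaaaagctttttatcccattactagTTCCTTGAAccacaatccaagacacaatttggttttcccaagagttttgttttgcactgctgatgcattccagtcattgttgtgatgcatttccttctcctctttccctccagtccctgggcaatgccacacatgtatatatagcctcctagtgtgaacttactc
The IL6 window holds 1 match to the NF-kB consensus, 73 to 64 bases before the start. It is cut to 197 bases so that it ends before annotated exons. The IL11 window holds 1 AP-1 site, TGANTCA, at 96 to 90 bases before the start. A STAT dimer site, TTCNNNGAA, lies in 2 of the 3 LIFR windows, in the printed one at 165 to 157 bases before the start and in the other at 182 to 174. Both strands were searched, and the sites do not overlap each other. None of the 3 motifs was found in the windows of IL6ST, OSMR, SOCS3 or STAT3, which says only that these letters are not there. The RefSeq starts behind the 2 SOCS3 windows lie 848 and 407 bases from the nearest start annotated by GENCODE. Among all 35116 windows of 250 bases in the table, 6.57% hold the STAT dimer site, 5.21% the NF-kB consensus and 6.57% the AP-1 site, so that matches are common and say nothing of binding in these cells.

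Levels of different genes were compared by FPKM, the deposited counts scaled for length and depth. SOCS3 was the most abundant of the 9 transcripts per length in every control library, but in no siRBM47 library. It stood at 12.1, 14.7 and 14.4 FPKM in siRBM47 replicates 1 to 3, against 27.8, 27.4 and 41.1 FPKM in control replicates 1 to 3. In control replicate 2 IL11 was close under SOCS3, at 26.8 FPKM. In siRBM47 replicate 1 IL6ST and CLCF1 were level at the top (17.8 FPKM each), and CLCF1 was first in siRBM47 replicates 2 and 3 (19.5 and 16.1 FPKM). At the low end LIFR was ninth in 5 libraries, at 2.37 and 1.82 FPKM in siRBM47 replicates 1 and 2 and 1.06, 1.09 and 3.98 FPKM in the 3 controls. In siRBM47 replicate 3 IL6 was ninth, at 1.77 FPKM, just under LIFR at 1.87 FPKM, an order that rests on the length used for IL6. The middle ranks changed places between libraries of a group, so neighbours such as CLCF1 and OSMR (17.8 and 14.8 FPKM in siRBM47 replicate 1, 11.4 and 20.5 FPKM in control replicate 3) have no fixed order.

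**Figure D1:**
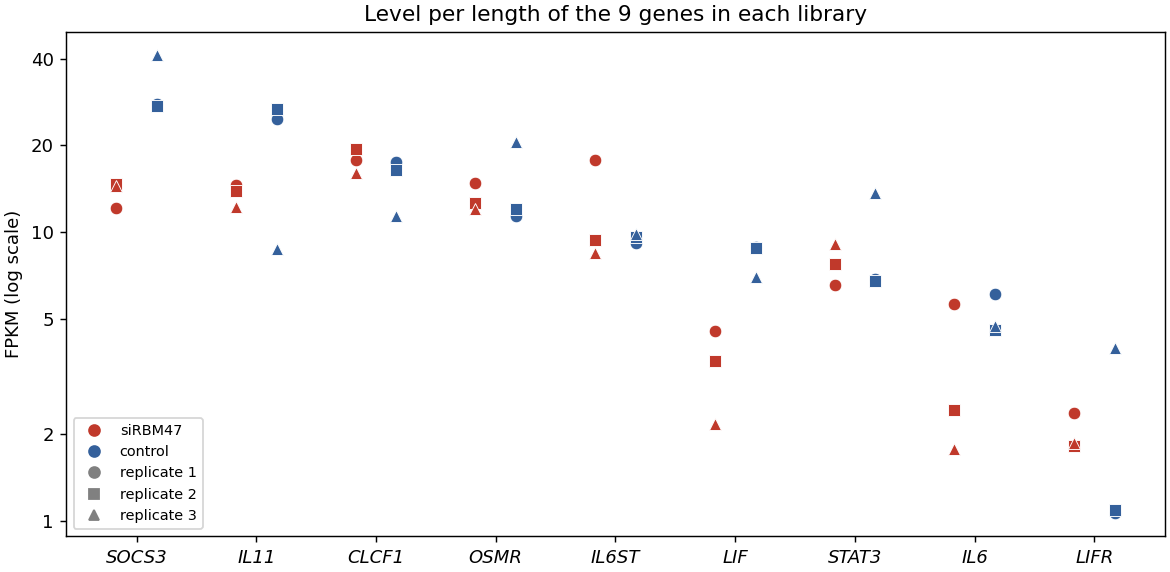
Deposited FPKM (log axis) of the 9 genes, each point 1 library, with the 3 siRBM47 libraries left of the 3 control libraries for each gene. SOCS3 has the 3 highest control values per length (27.4 to 41.1 FPKM) and lies at 12.1 to 14.7 FPKM in siRBM47, whereas LIFR is the lowest gene in 5 of the 6 libraries.

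Among the ligands, LIF was the one whose groups did not overlap. LIF (ENSG00000128342, GRCh38 chromosome 22, 30240447 to 30246851, minus strand) encodes leukemia inhibitory factor, the ligand of the LIFR and gp130 pair. It was measured at 18.01, 14.4 and 8.60 CPM in siRBM47 replicates 1 to 3 (326, 252 and 154 counts), against 35.7, 35.3 and 28.4 CPM in control replicates 1 to 3 (527, 614 and 533 counts). All 3 siRBM47 libraries lay under all 3 controls, and within siRBM47 replicate 3 was the lowest. The means were 13.7 ± 4.74 CPM in siRBM47 and 33.1 ± 4.12 CPM in control (SD, n = 3 each). This gave a log2 fold change of -1.28 (SE 0.28, 95% interval -1.90 to -0.66, adjusted p = 0.0907, edgeR), a ratio of 0.413, which did not pass the threshold of 0.05 over all 14578 tested genes. DESeq2 put the same difference past the threshold (adjusted p = 0.00206) and limma-voom did not (adjusted p = 0.0800). Without control replicate 3 it was -1.38 (SE 0.25, adjusted p = 0.00199, edgeR). LIF-AS1 and AC004264.1 overlap 6.7% of the LIF exon bases on the opposite strand, and the kit does not mark strand.

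**Figure D2:**
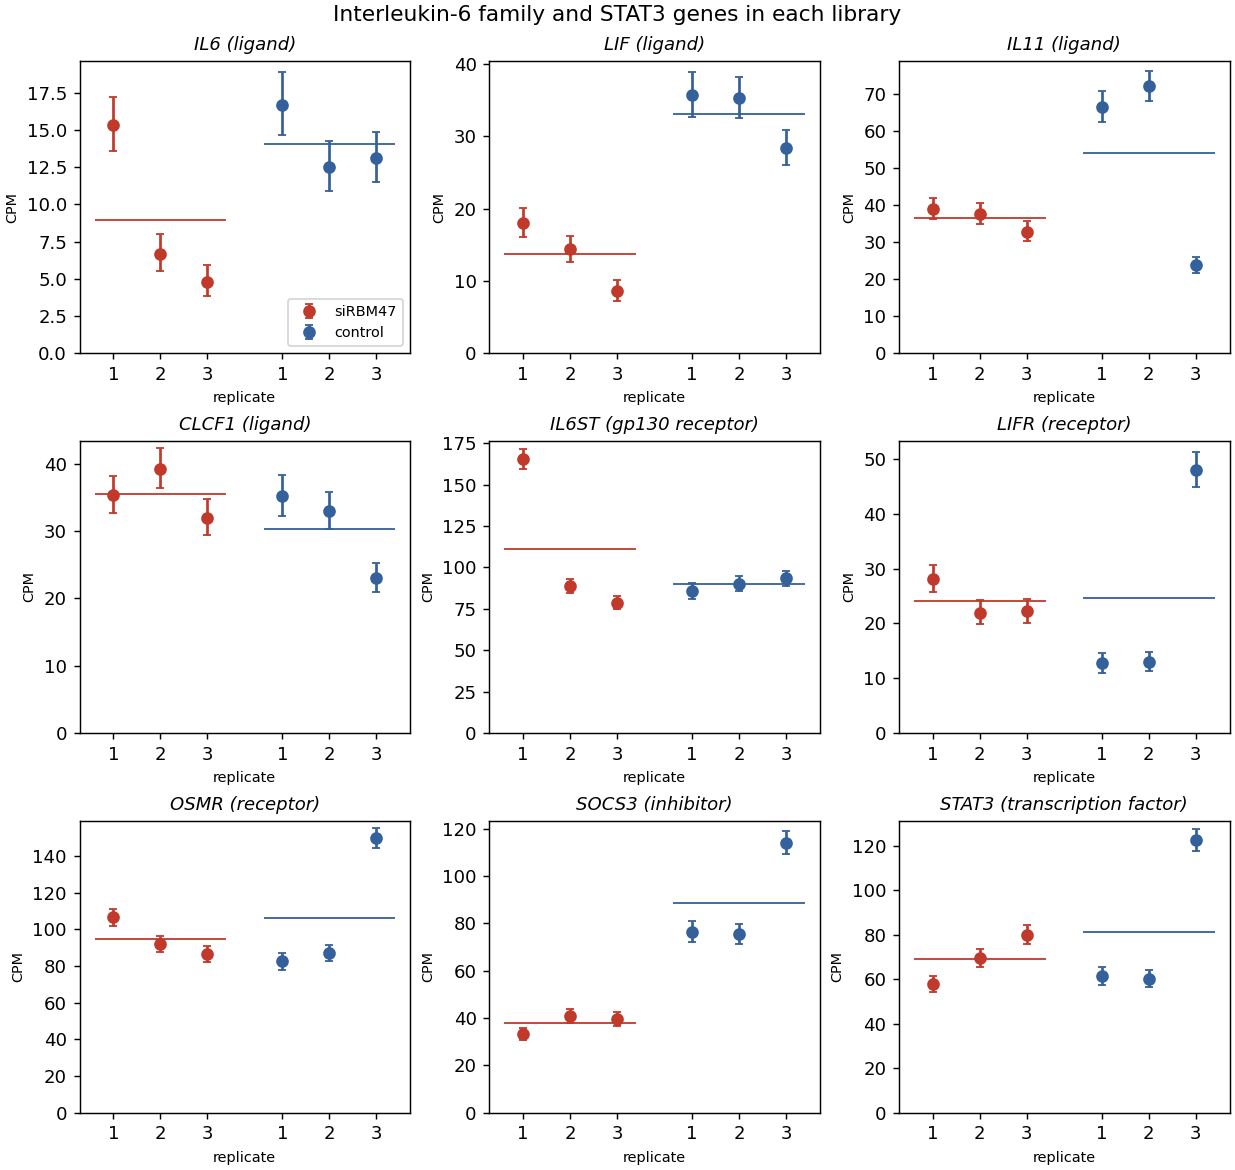
CPM of each of the 9 genes in each library, siRBM47 to the left of control; error bars are exact Poisson 95% intervals of the count, which cover counting error only, and lines are group means. LIF and SOCS3 are the genes in which all 3 siRBM47 libraries lie under all 3 controls (8.60 to 18.01 against 28.4 to 35.7 CPM, and 33.1 to 40.7 against 75.4 to 114 CPM).

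IL6 varied most within the siRBM47 group. IL6 (ENSG00000136244, GRCh38 chromosome 7, 22725884 to 22732002, plus strand) encodes interleukin-6, an inflammatory cytokine. Its level was 15.3, 6.69 and 4.80 CPM in siRBM47 replicates 1 to 3 (277, 117 and 86 counts), against 16.7, 12.5 and 13.1 CPM in control replicates 1 to 3 (246, 217 and 246 counts). Replicate 1 of siRBM47 lay among the controls and replicates 2 and 3 lay under them, so the groups overlapped. Replicate 1 was 1.42 above the other siRBM47 libraries on the log2 scale, beyond the 95th percentile of all tested genes for that difference (0.77). The log2 fold change of IL6 was -0.65 (SE 0.39, 95% interval -1.53 to 0.22, adjusted p = 0.449, edgeR), and -1.29 without siRBM47 replicate 1 (adjusted p = 0.245). AC073072.1 and STEAP1B overlap 20.7% of its exon bases on the opposite strand, so part of these counts is uncertain. The deposited FPKM imply a length of 2592 to 2859 bases for IL6, against 2069 exon bases in the annotation used here. For every other member the annotated length lay inside the implied range. The overlap share of IL6 in the submitters' annotation is thus not known, and its FPKM ranks and ratios rest on their longer length.

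For IL11 the control libraries disagreed. IL11 (ENSG00000095752, GRCh38 chromosome 19, 55364389 to 55370463, minus strand) encodes interleukin-11, a cytokine of stromal and epithelial cells. It was at 39.1, 37.6 and 32.8 CPM in siRBM47 replicates 1 to 3 (707, 658 and 588 counts), against 66.4, 72.0 and 23.7 CPM in control replicates 1 to 3 (981, 1252 and 446 counts). Control replicates 1 and 2 lay above all siRBM47 libraries and control replicate 3 under them. With all 6 libraries IL11 had a log2 fold change of -0.57 (SE 0.35, 95% interval -1.36 to 0.23, adjusted p = 0.469, edgeR). Without control replicate 3, which was 1.54 under the other controls on the log2 scale, it was -0.92 (SE 0.16, adjusted p = 0.00164, edgeR). CLCF1 (ENSG00000175505, GRCh38 chromosome 11, 67364168 to 67374177, minus strand) encodes a neurotrophic cytokine. It was at 35.4, 39.3 and 32.0 CPM in siRBM47 replicates 1 to 3, against 35.1, 32.9 and 23 CPM in control replicates 1 to 3. The groups overlapped, and control replicate 3 was again the lowest library. On the same strand AP003419.1 overlaps 3.1% of its exon bases. CLCF1 had a log2 fold change of 0.23 (SE 0.21, 95% interval -0.25 to 0.71, adjusted p = 0.641, edgeR), and 0.06 without control replicate 3.

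The balance between ligands also differed from library to library. IL11 exceeded LIF per length in all 6 libraries, by FPKM ratios of 3.22, 3.88 and 5.67 in siRBM47 replicates 1 to 3 and 2.77, 3.03 and 1.24 in control replicates 1 to 3. The 3 siRBM47 ratios lay above the 3 control ratios, the closest being 3.22 and 3.03. The groups of LIF alone did not overlap either, and the share of other gene pairs whose ratios separate was not determined. LIF and IL6 were nearer to each other, with ratios of 0.804, 1.47 and 1.22 in siRBM47 and 1.46, 1.93 and 1.48 in control, which overlapped.

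None of the receptor chains had groups that separated. IL6ST (ENSG00000134352, GRCh38 chromosome 5, 55935095 to 55994993, minus strand), the shared gp130 chain, was at 166, 88.7 and 78.8 CPM in siRBM47 replicates 1 to 3 (2998, 1553 and 1410 counts), against 85.8, 90.1 and 93.4 CPM in control replicates 1 to 3 (1268, 1565 and 1754 counts). The 3 controls were close to each other, and siRBM47 replicate 1 lay far above every other library. IL6ST had a log2 fold change of 0.31 (SE 0.27, 95% interval -0.31 to 0.92, adjusted p = 0.622, edgeR) which turned to -0.10 without siRBM47 replicate 1 (adjusted p = 0.848). Replicate 1 was therefore the library with the most IL6ST and the most IL6 and LIF of its group. The processed pseudogene IL6STP1 had 0 counts in every library.

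LIFR and OSMR, the partners of gp130 for LIF and oncostatin M, lie on opposite strands of chromosome 5 with a gap of 237503 bases and 0 protein-coding genes between them. LIFR (ENSG00000113594, GRCh38 38474963 to 38608354, minus strand) was at 28.2, 21.9 and 22.2 CPM in siRBM47 replicates 1 to 3 (510, 384 and 397 counts), against 12.7, 13.0 and 48.1 CPM in control replicates 1 to 3 (188, 226 and 903 counts). All siRBM47 libraries lay between control replicates 1 and 2 on one side and control replicate 3 on the other. LIFR had a log2 fold change of -0.03 (SE 0.47, 95% interval -1.07 to 1.01, adjusted p = 0.980, edgeR) with all libraries. Without control replicate 3 it was 0.90 (SE 0.20, 95% interval 0.47 to 1.34, adjusted p = 0.00658, edgeR), so that its sign and its call both turned on 1 library. OSMR (ENSG00000145623, GRCh38 38845858 to 38945596, plus strand) was at 106, 92.0 and 86.4 CPM in siRBM47 replicates 1 to 3, against 82.5, 86.8 and 150 CPM in control replicates 1 to 3. Control replicate 3 was the highest library here too, 0.82 above the other controls on the log2 scale. The log2 fold change of OSMR was -0.16 (SE 0.25, 95% interval -0.72 to 0.40, adjusted p = 0.789, edgeR), and 0.17 without control replicate 3 (adjusted p = 0.476).

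OSMR exceeded LIFR per length in each library. The FPKM ratio of OSMR to LIFR was 6.25, 6.93 and 6.44 in siRBM47 replicates 1 to 3, and 10.7, 11.04 and 5.16 in control replicates 1 to 3. The siRBM47 libraries were close to each other and lay inside the range of the controls. IL6ST also exceeded LIFR throughout, at ratios of 7.51, 5.16 and 4.53 in siRBM47 and 8.61, 8.84 and 2.48 in control. Opposite-strand genes overlap 8.6% of the exon bases of IL6ST (AC008914.1), 5.3% of LIFR (LIFR-AS1) and 3.2% of OSMR (RICTOR), and those counts are uncertain to that extent. Between IL6ST and OSMR the order changed, with ratios of 1.20, 0.745 and 0.704 in siRBM47 and 0.803, 0.801 and 0.481 in control.

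SOCS3 had the smallest p of the 9 genes. SOCS3 (ENSG00000184557, GRCh38 chromosome 17, 78356778 to 78360077, minus strand) encodes the suppressor of cytokine signalling that binds gp130. It was at 33.1, 40.7 and 39.4 CPM in siRBM47 replicates 1 to 3 (600, 713 and 706 counts), against 76.4, 75.4 and 114 CPM in control replicates 1 to 3 (1129, 1311 and 2144 counts). Every siRBM47 library lay under every control, and control replicate 3 was the highest. The means were 37.8 ± 4.07 CPM in siRBM47 and 88.7 ± 22.1 CPM in control (SD, n = 3 each). SOCS3 had a log2 fold change of -1.23 (SE 0.22, 95% interval -1.72 to -0.74, adjusted p = 0.0690, edgeR), a ratio of 0.426, short of the threshold over all tested genes. By DESeq2 the adjusted p was 0.000137, and by limma-voom it was 0.0671. Without control replicate 3 the log2 fold change was -1.01 (SE 0.16, adjusted p = 0.000972, edgeR). Neither strand carries another annotated gene over its exons.

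STAT3 (ENSG00000168610, GRCh38 chromosome 17, 42313324 to 42388568, minus strand), the transcription factor of the pathway and itself one of its target genes, was at 57.8, 69.4 and 80.0 CPM in siRBM47 replicates 1 to 3 (1046, 1215 and 1433 counts). In control replicates 1 to 3 it was at 61.3, 60.3 and 123 CPM (906, 1047 and 2304 counts). The groups overlapped, and control replicate 3 was the highest library by 1.01 on the log2 scale over the other controls. STAT3 had a log2 fold change of -0.24 (SE 0.29, 95% interval -0.89 to 0.41, adjusted p = 0.733, edgeR), and 0.18 without control replicate 3 (adjusted p = 0.471). Relative to STAT3, SOCS3 stood at FPKM ratios of 1.85, 1.89 and 1.59 in siRBM47 replicates 1 to 3 and 4.02, 4.04 and 3.0 in control replicates 1 to 3. These ratios did not overlap, and neither did the SOCS3 levels alone. The share of other gene pairs whose ratios separate was not determined. The high SOCS3 level of control replicate 3 went with a high STAT3 level in that library.

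Across the 9 genes, 0 passed the edgeR threshold, where 0.22% of all tested genes did. At an unadjusted p under 0.05 there were 2, LIF and SOCS3, both lower in siRBM47, against 16.1% of all tested genes in either direction and 8.94% lower at that level. The same 2 of 9 had groups that did not overlap, against 22.6% of all tested genes in either direction and 11% with siRBM47 lower. DESeq2 called these 2, where it called 4.37% of all tested genes and 2.59% as lower, and limma-voom called 0 (0.233%). The log2 fold change was positive for 2 members and negative for 7, with a median of -0.24, beside -0.01 over all tested genes. Leaving out control replicate 3 gave 4 calls by edgeR, LIF, IL11 and SOCS3 lower and LIFR higher, against 21.4% of all tested genes (11.3% lower and 10.1% higher), and the median was 0.06. In that fit the spread among controls comes from control replicates 1 and 2 alone.

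**Figure D3:**
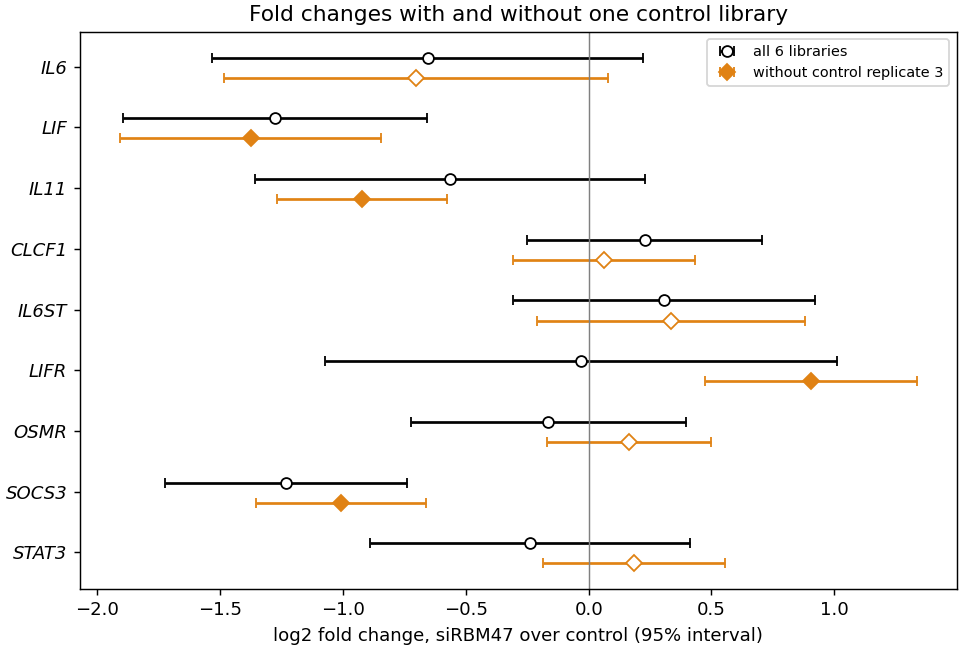
Log2 fold change of siRBM47 over control for the 9 genes with 95% intervals, with all 6 libraries (circles) and without control replicate 3 (diamonds), filled where the adjusted p is under 0.05. The intervals of LIF and SOCS3 lie under 0 in both fits, that of IL11 (-1.27 to -0.58) lies under 0 and that of LIFR (0.47 to 1.34) above 0 without control replicate 3, and the estimates of LIFR, OSMR and STAT3 change sign.

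The rest of the pathway was read from 5 lists. Of 7 other ligands and partners, 3 were tested and 0 passed: CTF1 (cardiotrophin-1), CNTF and EBI3, with log2 fold changes of -0.40 (SE 0.27), -0.36 (SE 0.49) and 0.18 (SE 0.38) and adjusted p-values of 0.509, 0.755 and 0.854 by edgeR. The values were -0.15, -0.36 and 0.61 without control replicate 3, and 0 passed. Oncostatin M, a ligand of OSMR, was at 0, 0 and 0 counts in siRBM47 and 0, 3 and 2 in control. OSM thus had at most 3 counts in any library, while OSMR was well measured. A count of 0 still allows an expected count of up to 3.

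Of the 5 other receptors, 4 were tested and 0 passed. IL6R, the binding chain that confers response to IL-6, was at 4.25, 3.71 and 4.13 CPM in siRBM47 replicates 1 to 3, against 7.72, 8.29 and 7.19 CPM in control replicates 1 to 3. The groups did not overlap, and replicates were close within each. Its log2 fold change was -0.94 (SE 0.24, adjusted p = 0.117, edgeR), past the threshold by DESeq2 (adjusted p = 0.0271) and without control replicate 3 (-0.99, adjusted p = 0.0114, edgeR). IL27RA and IL31RA had log2 fold changes of -0.56 (SE 0.43, adjusted p = 0.557) and 0.11 (SE 0.33, adjusted p = 0.906) by edgeR. In the fit without control replicate 3, IL27RA was at 0.02 (adjusted p = 0.973, edgeR) and IL31RA at 0.66 (adjusted p = 0.0216, edgeR). IL11RA, the binding chain for IL-11, was at 6.74, 7.83 and 8.66 CPM in siRBM47 and 5.01, 3.68 and 12.7 CPM in control. Its groups overlapped, and control replicate 3 was the highest library. Without control replicate 3 the log2 fold change of IL11RA was 0.84 (adjusted p = 0.0357, edgeR). Thus 2 receptors were called higher in that fit and 1, IL6R, lower, where 10.1% of all tested genes were called higher and 11.3% lower. CNTFR, the binding chain for CLCF1, had 0, 2 and 0 counts in siRBM47 and 1, 0 and 1 in control.

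Among the 9 tested genes of 10 Janus kinases and other STAT factors, 0 passed. JAK3, a kinase best known from lymphocytes, was at 0.442, 0.571 and 1.40 CPM in siRBM47 and 1.62, 1.61 and 4.31 CPM in control. TYK2, a kinase that associates with gp130, was at 47.9, 71.6 and 74.7 CPM in siRBM47 and 89.9, 99.4 and 82.2 CPM in control. Both had groups that did not overlap, with log2 fold changes of -1.65 (SE 0.58, adjusted p = 0.217) and -0.48 (SE 0.21, adjusted p = 0.306) by edgeR. STAT6, the factor of interleukin-4 signalling, was at -0.36 (SE 0.19, adjusted p = 0.379, edgeR). Its groups did not overlap either, nor did those of STAT5B. In all, 4 of the 9 tested genes separated with siRBM47 lower and 0 with siRBM47 higher, beside 11% and 11.6% of all tested genes. JAK1, the main kinase bound to gp130, was at 167, 145 and 171 CPM in siRBM47 and 112, 117 and 221 CPM in control. The JAK1 groups overlapped, and control replicate 3 was the highest library. With control replicate 3 left out, JAK3 was at -1.0 (adjusted p = 0.178, edgeR), and JAK1 was called higher (0.49, adjusted p = 0.0309, edgeR). In this list 2 genes were called higher and 0 lower, in a fit that called 10.1% of all tested genes higher and 11.3% lower.

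Of 15 other inhibitors of the pathway, 13 were tested and 0 passed. PIAS1, an inhibitor of activated STAT factors, was at 20.3, 18.8 and 18.3 CPM in siRBM47 and 30.5, 30.4 and 32.4 CPM in control, a log2 fold change of -0.70 (SE 0.18, adjusted p = 0.117, edgeR). By DESeq2 it passed (adjusted p = 0.0209). The phosphatase PTPN1 was at 72.7, 76.6 and 88.7 CPM in siRBM47 and 108, 117 and 128 CPM in control. Its log2 fold change of -0.57 (SE 0.18, adjusted p = 0.173, edgeR) and that of PIAS2, 0.57 (SE 0.23, adjusted p = 0.263, edgeR), had opposite signs, and the groups of both did not overlap. Of the 13 tested inhibitors, 3 separated with siRBM47 lower and 3 with siRBM47 higher, beside 11% and 11.6% of all tested genes. Leaving out control replicate 3, 2 inhibitors were called higher and 3 lower, in a fit that called 10.1% of all tested genes higher and 11.3% lower. Among them were PIAS2 (0.72, adjusted p = 0.0239, edgeR) and PIAS1 and PTPN1 (-0.67 and -0.50, adjusted p = 0.0148 and 0.0316, edgeR).

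The list of 24 STAT3 target genes held the 2 genes of the 5 lists that passed the edgeR threshold, both lower. Of all tested genes 0.137% were called lower. The list was chosen with both calls known, so neither their number nor the list median is a test of the target genes. BCL3, a co-regulator of NF-kB, fell to 30.9, 34.7 and 27.8 CPM in siRBM47 replicates 1 to 3, against 75.1, 77.7 and 67.4 CPM in control replicates 1 to 3 (log2 fold change -1.24, SE 0.18, adjusted p = 0.0372, edgeR). CEBPB, a transcription factor of the acute-phase response, fell to 237, 311 and 225 CPM in siRBM47, against 684, 607 and 583 CPM in control (log2 fold change -1.28, SE 0.19, adjusted p = 0.0386, edgeR). The libraries of each group lay close together, control replicate 3 included. Both calls were lost when any library other than control replicate 3 was left out, with adjusted p-values of 0.0818 to 0.319 by edgeR at log2 fold changes of -1.42 to -1.16. CEBPD, a relative of CEBPB, was at 54.9, 60.0 and 46.4 CPM in siRBM47 and 104, 93.7 and 114 CPM in control (log2 fold change -0.95, SE 0.19, adjusted p = 0.0739, edgeR).

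In the target list as a whole, chosen with earlier results of these data known, 21 genes were tested. The log2 fold change was positive for 5 and negative for 16, and the median was -0.56 beside -0.01 over all tested genes. The groups did not overlap for 10 of them, 7 lower and 3 higher in siRBM47, beside 11% and 11.6% of all tested genes. Without control replicate 3 the median was -0.25, with 4 calls higher and 7 lower of 21, in a fit that called 10.1% of all tested genes higher and 11.3% lower. The following were chosen after their values were seen. PIM1, a survival kinase, was at 27.9, 28.6 and 26.6 CPM in siRBM47 and 49.2, 48.4 and 84.7 CPM in control (log2 fold change -1.13, SE 0.25, adjusted p = 0.0907, edgeR), and JUNB, an AP-1 subunit, was at -0.87 (SE 0.22, adjusted p = 0.117, edgeR). The opposite sign was found for FOS, another AP-1 subunit, at 101, 147 and 117 CPM in siRBM47 and 26.7, 19.9 and 76.9 CPM in control (log2 fold change 1.56, SE 0.45, adjusted p = 0.146, edgeR). A2M, a protease inhibitor induced by STAT3 in the liver, was at 3.87, 4.46 and 3.80 CPM in siRBM47 and 1.02, 0.633 and 2.08 CPM in control (log2 fold change 1.69, SE 0.44, adjusted p = 0.119, edgeR). DESeq2, which called 4.37% of all tested genes and 2.59% lower, called all 4, PIM1 and JUNB lower and FOS and A2M higher. Their log2 fold changes without control replicate 3 were -0.82 for PIM1, -0.68 for JUNB, 2.39 for FOS and 2.30 for A2M (adjusted p = 0.0034, 0.0124, 1.03e-05 and 0.00126, edgeR). TIMP1, an inhibitor of matrix proteases, was at 659, 740 and 580 CPM in siRBM47 and 2341, 1846 and 479 CPM in control, so that control replicate 3 lay under every siRBM47 library, as it did for IL11. TIMP1 was at -1.24 (SE 0.46, adjusted p = 0.236, edgeR), and at -1.67 without that library (adjusted p = 1.35e-05, edgeR).

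**Figure D4:**
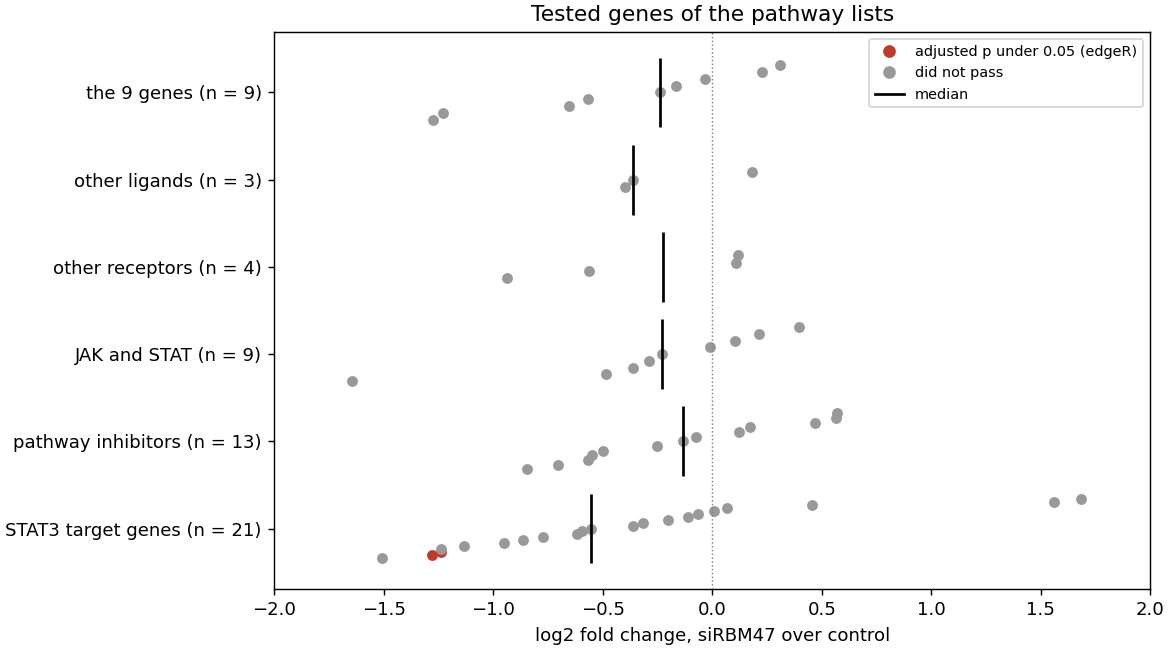
Log2 fold change of siRBM47 over control for each tested gene of the 9 members and the 5 pathway lists, with the median of each list as a bar. The 2 points marked as past the edgeR threshold are BCL3 (-1.24) and CEBPB (-1.28), and the medians run from -0.13 (inhibitors) to -0.56 (STAT3 target genes).

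For each ligand and for SOCS3 the 3 genes with the most similar profile over the 6 libraries were taken among 9604 genes, by the root mean square difference of centred log2 CPM. The closest to SOCS3 were CD74, an antigen presentation chaperone (0.0752), PDIA4, a chaperone of the endoplasmic reticulum (0.104), and PPP4R1L (0.127), while SOCS3 itself departed from its own mean by 0.641. CD74 was at 52.8, 71.0 and 58.4 CPM in siRBM47 and 126, 119 and 193 CPM in control. It thus shared with SOCS3 the lower siRBM47 levels and the highest level in control replicate 3. LIF was closest to the noncoding RNA MALAT1 (0.120), the integrin ITGAX (0.121) and LRP4 (0.156), at an own departure of 0.741. MALAT1 was at 66.3, 57.1 and 32.0 CPM in siRBM47 and 135, 110 and 93.2 CPM in control, with replicate 3 the lowest of each group, as for LIF. IL11 was closest to LPXN (0.0722), IFI27L1 (0.0808) and BOLA1 (0.10), which shared its low level in control replicate 3. The neighbours of IL6 were less close: MAST4 (0.208), NAMPT, which makes a precursor of NAD (0.233), and PTGS2, the inducible cyclooxygenase (0.234). In PTGS2, siRBM47 replicate 1 (18.2 CPM) lay far above replicates 2 and 3 (6.91 and 6.42 CPM), as it did in IL6. CLCF1, whose own departure was 0.241, was closest to WDR73 (0.0265), TRIOBP (0.0477) and PDPK1 (0.0529). These likenesses describe 6 libraries and were not tested.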

How the data were processed

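The authors deposited whole-number counts per gene beside FPKM for each of 6 libraries, per the file headers. The library kit does not mark strand, per the labels' protocols. The submitters' processing notes name HISAT2 2.0.5, featureCounts 1.5.0-p3 and hg38; the annotation release and strand setting were not given in the sources used here. FPKM served to compare levels between genes, without a test.

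Counts were filtered (filterByExpr, minimum count of 10, 14578 genes) and tested with edgeR 4.0.16 (TMM, quasi-likelihood test, R 4.3.3), with Benjamini-Hochberg adjustment over all tested genes and a threshold of 0.05. CPM use the TMM-scaled library sizes. Standard errors were derived from the F statistic as the size of the log2 fold change divided by its root. The edgeR step was tested on simulated data in which no library was made to stand apart, unlike control replicate 3 here. Log2 differences between libraries used CPM with an offset of 0.1. GENCODE release 29 (GRCh38) gave positions and overlaps. Rounded totals were 17600000, 17880000 and 17580000 counts in siRBM47 replicates 1 to 3 and 15580000, 17640000 and 18130000 in control replicates 1 to 3. Counting limits cover counting error only.

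The members, lists and markers were chosen with earlier results of these data known, and BCL3 and CEBPB were known to be called. From each list the genes past the threshold and the 3 with the smallest p are named, and for each ligand and SOCS3 the 3 genes of nearest profile, taken where the mean log2 CPM was 3 or more. SOCS7 and PECAM1 were not matched. Some listed genes are not reported here. Libraries of a group differed by more than counting noise (chi-square per degree of freedom 10.74 to 144.83), so none was counted as a repeat. Alternatives were RLE and upper-quartile factors, DESeq2 1.42.0, limma-voom (limma 3.58.1), a replicate block, a minimum count of 50, no filter, and leaving out each library.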

Additional observations from a re-analysis of the deposited data

How the results depend on the processing

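With 3 libraries a group, calls depended on the tool and on single libraries; the cause was not tested. All tested genes gave 32 calls by edgeR, against 637 by DESeq2 (260 higher, 377 lower) and 804 without the filter (326 higher, 478 lower), and 0 to 3117 with 1 library left out. The count was 0 without siRBM47 replicate 1, 2 or 3 (1789, 1816 and 1445 genes at an unadjusted p under 0.05, edgeR) and 3117 without control replicate 3. Members called were 0 by edgeR, 2 by DESeq2, 2 without the filter and 0 to 4 with 1 library left out. Genes of the 5 pathway lists called were 2 by edgeR, 9 by DESeq2, 9 without the filter, 0 with the replicate block and 0 to 21 with 1 library left out.

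LIF was past the threshold at -1.28 by DESeq2 and at -1.26 without the filter, and SOCS3 at -1.23 and -1.22. LIFR turned to 0.24 by limma-voom and 0.27 with the replicate block. With 1 library left out, log2 fold changes ran from -1.29 to -0.36 (IL6), -1.53 to -1.03 (LIF), -0.92 to -0.30 (IL11), 0.06 to 0.35 (CLCF1), -0.10 to 0.50 (IL6ST), -0.33 to 0.90 (LIFR), -0.31 to 0.17 (OSMR), -1.33 to -1.01 (SOCS3) and -0.40 to 0.18 (STAT3). Of 117 alternative values of the member fold changes, 102 kept their sign and their side of the threshold, 8 turned sign and 7 others were newly past the threshold. Of the sign turns, that of LIFR without control replicate 3 was also newly past it.

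No pairing of libraries by replicate number was seen. Same-numbered deviations correlated at -0.04, 0.13 and 0.12, and different-numbered ones at -0.21 to 0.20. With 3 libraries a group these values cannot exclude a pairing. With the number as a block 39 genes were called in all, 0 of them members, with LIF at -1.33 (adjusted p = 0.0675, edgeR) and SOCS3 at -1.21 (adjusted p = 0.0718, edgeR). BCL3 and CEBPB were not past the threshold with the block (adjusted p = 0.0523 and 0.0535, edgeR). Depth limits OSM and CNTFR, with at most 3 counts in any library.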
